A study of Mus musculus with 18 samples.

Results

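The 10 genes described here encode chaperones that are switched on by stress or are abundant in muscle, and they were taken by name from a table of 35843 genes measured in single cells of postnatal mouse hearts. Of these, 5 were grouped as stress-induced (Hspa1a, Hspa1b, Hsph1, Dnajb1 and Hsp90aa1), 4 as small heat shock proteins of muscle (Hspb1, Hspb6, Hspb7 and Cryab), and Hspa8 stood as the constitutive relative of the inducible Hsp70 genes. All 10 genes had a column in each of the 18 count tables. The labels give the strain Myh6/Esr1-Tomato for all 18 chips, in which, per the study's methods, a tamoxifen-induced Cre under the Myh6 promoter marks cardiomyocytes (CMs) with tdTomato and tamoxifen is given to the nursing mothers. Wild-type here means without knockdown, as in the labels, and not free of these transgenes. Wild-type hearts filled 2 chips each at postnatal day 4 (P4), P7 and P14, and 6 chips at P28. The other 6 chips held P28 hearts that had received lentivirus with a hairpin against Jun (shJun) or a nontargeting hairpin (shNT) in the left ventricle at P1, 2 animals for each hairpin, with an animal of each kind on every chip. P4 and P7 hearts were digested with a kit and P14 and P28 hearts by perfusion, so age and digestion cannot be told apart between P7 and P14. Both chips of P4 held the same 2 mice, as did both chips of P7, so their replicates were repeat chips, whereas the P14 chips held 1 mouse each. At P28, replicates 3 and 4 appeared to come from the same animal, so the 6 chips cannot be taken as separate hearts.

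Heat shock proteins keep other proteins from aggregating and help them fold. When unfolded proteins accumulate, heat shock factor 1 (encoded by Hsf1) is released, forms trimers and binds heat shock elements, inverted repeats of the letters GAA, in front of genes such as Hspa1a, Hspa1b, Hsph1 and Dnajb1. Small heat shock proteins hold unfolding clients without using ATP, and in heart muscle Cryab, Hspb6 and Hspb7 serve the contractile and cytoskeletal filaments. Preparing single cells by enzymes at warm temperature is itself known to switch on stress genes, immediate early genes included.

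The 2 inducible Hsp70 genes lie on chromosome 17 and are near copies. Hspa1a spans chr17:34969190-34972156 and Hspa1b spans chr17:34956436-34959238 (build GRCm38, minus strand). Of the 250 bases before their starts, 247 were identical. Across their transcripts, of 2967 and 2803 bases, 58.8% of the 50-base windows of Hspa1a also occurred in Hspa1b, but none of the windows in the last 500 bases did. Reads from the shared stretches cannot be assigned to 1 of the 2 genes, so the split between them is uncertain and their sum was also tested.

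Promoters are shown because they carry the heat shock element by which the stress-induced genes are known to be controlled. RefSeq entries (GRCm38.p6) were matched for 7 of the 10 genes, and Hspa8, Hsp90aa1 and Cryab were not matched. The search covered 250 bases before and 50 after each start, on both strands, for GAANNTTC or TTCNNGAA, which can overlap each other. Each sequence gives the 250 bases before the start, 5′ to 3′ on the gene's strand, with matches in capitals.
Hspa1a, chr17:34972157-34972406, minus strand: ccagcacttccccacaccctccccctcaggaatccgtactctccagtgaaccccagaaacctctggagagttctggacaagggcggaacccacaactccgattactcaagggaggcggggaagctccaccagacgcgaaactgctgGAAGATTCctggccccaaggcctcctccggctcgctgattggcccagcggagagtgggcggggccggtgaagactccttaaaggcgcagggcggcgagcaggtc
Hspa1b, chr17:34959239-34959488, minus strand: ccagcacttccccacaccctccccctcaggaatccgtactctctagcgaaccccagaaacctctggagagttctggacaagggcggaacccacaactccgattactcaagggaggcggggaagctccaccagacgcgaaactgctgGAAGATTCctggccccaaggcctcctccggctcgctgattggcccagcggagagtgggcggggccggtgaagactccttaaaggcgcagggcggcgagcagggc
Hsph1, chr5:149636316-149636565, minus strand: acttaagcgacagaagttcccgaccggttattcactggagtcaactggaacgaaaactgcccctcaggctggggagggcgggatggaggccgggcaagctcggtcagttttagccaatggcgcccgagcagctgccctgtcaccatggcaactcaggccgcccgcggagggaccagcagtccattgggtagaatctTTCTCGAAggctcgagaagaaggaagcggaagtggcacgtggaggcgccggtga
Hspb1, chr5:135887669-135887918, plus strand: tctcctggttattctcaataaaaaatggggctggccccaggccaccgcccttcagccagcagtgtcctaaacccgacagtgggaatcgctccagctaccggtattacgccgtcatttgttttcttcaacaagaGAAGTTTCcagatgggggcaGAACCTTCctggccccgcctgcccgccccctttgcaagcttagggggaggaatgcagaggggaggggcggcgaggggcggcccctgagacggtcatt
Hspb7, chr4:141420529-141420778, plus strand: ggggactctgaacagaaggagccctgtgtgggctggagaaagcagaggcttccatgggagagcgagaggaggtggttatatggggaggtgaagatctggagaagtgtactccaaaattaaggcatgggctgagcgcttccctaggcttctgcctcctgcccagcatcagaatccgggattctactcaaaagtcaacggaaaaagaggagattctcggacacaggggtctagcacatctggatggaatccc
The pair of Hsp70 promoters held the same match at position -104 from the start. Hspb1, the small heat shock protein best known for being heat-inducible, held matches at -117 and -97. Hsph1, which encodes the Hsp110 nucleotide exchange partner of Hsp70, held 3 matches for this start. Of these, 2 overlapped just after the start, in the longer run TTCNNGAANNTTC, at chr5:149636279-149636308 on the minus strand: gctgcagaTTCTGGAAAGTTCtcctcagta. No match was found for Hspb7 or for the 2 starts of Dnajb1, and 1 of the 2 starts of Hspb6 held a match at -120. For scale, 17% of 27025 genes held at least 1 match, 0.296% held at least 3 and 0.662% held the longer run of either orientation. A match is a run of letters and not a measured binding site.

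Cells were counted as unique molecular identifiers (UMIs) per well, and 552 to 1500 cells per chip passed the filter of at least 500 genes, with medians of 3816 to 41531 UMIs per cell. All chips draw their barcodes from the same list of 5070 wells, and 65 to 447 passing barcodes were shared by a pair of chips. Clusters were named from marker genes that did not include the 10 chaperones, which were also left out of clustering. Naming required raised markers, Myh6 among those of CMs. Its median of 11090 CPM in the CM-like sums thus describes the class and does not test it. CPM gives UMIs of a gene scaled so that every sum has the same total. Levels below are CPM of the summed nuclear-gene UMIs of all cells of a class on a chip, for sums of at least 20 cells. P28 chips were loaded with a CM fraction (replicates 1, 3 and 5) or a non-CM fraction (replicates 2, 4 and 6). The P28 replicate 1 sums of non-CM classes came from a CM chip and held only 25 to 34 cells each. They contained Myh6 at 2494 to 3329 CPM against 69.6 to 244 CPM on the non-CM chips. Where a stage call changed without them, that is also given. The class counts and ratios on 6 shared chips and the tests within chips include them. At a minimum of 50 cells they and other small sums drop out, leaving 4 chips for endothelial-like and 3 each for fibroblast-like and macrophage-like sums. There, CM-like sums were still lower on every chip for the 5 stress-induced genes and higher for Cryab and Hspb7. At P7, the only CM-like sum over the cell minimum came from 21 cells of replicate 2.

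The inducible Hsp70 genes were low in CM-like cells and high in the other classes. Hspa1a had a median of 22.5 CPM over the 8 wild-type CM-like sums, with a range of 2.204 to 65.6 CPM. In endothelial-like sums its median was 246 CPM (range 53.6 to 469, n = 10), and in macrophage-like sums 258 CPM (122 to 734, n = 10). Fibroblast-like sums lay between, at a median of 87.2 CPM (6.58 to 246, n = 10). On the 6 chips that held both classes, the CM-like level of Hspa1a was below the endothelial-like level each time, and the median ratio of CM-like to endothelial-like was 0.0597 (range 0.0384 to 0.14). Endothelial-like and macrophage-like levels overlapped over most of their range.

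Hspa1b repeated this order. Its medians were 29.5 CPM in CM-like, 398 in macrophage-like, 313 in endothelial-like and 113 in fibroblast-like sums. CM-like sums were below the endothelial-like, fibroblast-like and macrophage-like sums of the same chip in 6 of 6 chips for each class. The same held for Hsph1 and for Dnajb1, the Hsp40 cochaperone that delivers clients to Hsp70, and for Hspa8. Hsp90aa1, the inducible Hsp90, was below the endothelial-like and macrophage-like sums in 6 of 6 chips and below the fibroblast-like sum in 5 of 6, where the sixth had a ratio of 1.04. Mural-like cells, a further named class, could be compared on 4 chips. CM-like sums were higher there on 1 of 4 for Hsph1 (ratio 1.02) and 1 of 4 for Hspa8 (1.29, with a median ratio of 0.954). They were higher on 0 of 4 for Hspa1a, Hspa1b, Dnajb1 and Hsp90aa1.

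The gap was much smaller for Hspa8 than for the inducible copies. Hspa8, which folds proteins and uncoats clathrin vesicles in unstressed cells, had a median CM-like to endothelial-like ratio of 0.637 (0.391 to 0.822), against 0.0667 (0.0429 to 0.124) for Hspa1b, and the 2 ranges did not overlap. The ratios of Hsp90aa1 were 0.554 (0.426 to 0.627), and those of Dnajb1 were 0.27 (0.146 to 0.474). In wild-type hearts the CM-like median was the lowest of the 4 classes for all 5 stress-induced genes. The size of the gap differed between genes. The other classes did not keep 1 order: fibroblast-like medians were below endothelial-like ones for Hspa1a and Hspa1b and above them for Hsph1, Dnajb1 and Hsp90aa1.

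Among the small heat shock proteins, Cryab, Hspb6 and Hspb7 had their highest median in CM-like cells of the 4 classes compared, and Hspb1 did not. Cryab, the αB-crystallin that protects desmin and titin filaments, had a median of 1487 CPM in CM-like sums (645 to 5199, n = 8). Its medians in the endothelial-like, fibroblast-like and macrophage-like sums were 244, 383 and 226 CPM. CM-like sums were higher on 6 of 6 chips against each class, by median ratios of 3.95, 2.84 and 3.80. Hspb7, which binds actin-based thin filaments in striated muscle, was likewise higher on 6 of 6 chips against each class, by 2.71-fold, 3.72-fold and 3.40-fold at the median. Hspb6, a partner of Cryab that was first found in muscle, was higher on 6 of 6 chips against endothelial-like and fibroblast-like sums and on 5 of 6 against macrophage-like sums. Against mural-like sums, CM-like sums were higher on 3 of 4 chips for Hspb6 and on 4 of 4 for Cryab and Hspb7.

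Hspb1 differed from them. Its median was 152 CPM in endothelial-like sums against 91.9 in CM-like sums, and CM-like sums were higher on 1 of 6 chips against endothelial-like, 3 of 6 against fibroblast-like and 5 of 6 against macrophage-like sums. In the macrophage-like sums its median was 25.2 CPM.

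CM transcripts were present in every non-CM class, and the small heat shock proteins were read beside them. Myh6 had medians of 2051, 1351 and 1466 CPM in endothelial-like, fibroblast-like and macrophage-like sums, and fell to 69.6 to 244 CPM only on the non-CM chips of P28. On those 3 chips Hspb7 was at 1.61, 3.16 and 4.74 CPM in endothelial-like sums, and Hspb6 at 6.68, 21.4 and 21.7 CPM. Both genes were thus far below their CM-like levels where Myh6 was lowest. Cryab did not fall as far there, with 89.8, 98.5 and 393 CPM in endothelial-like and 164, 342 and 344 CPM in fibroblast-like sums. Per 1000 UMIs of Myh6, Cryab was at a median of 115 in CM-like sums (55.4 to 670) and at 306 in fibroblast-like sums (169 to 4914). The part of free CM RNA in these values was not tested.

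**Figure D1:**
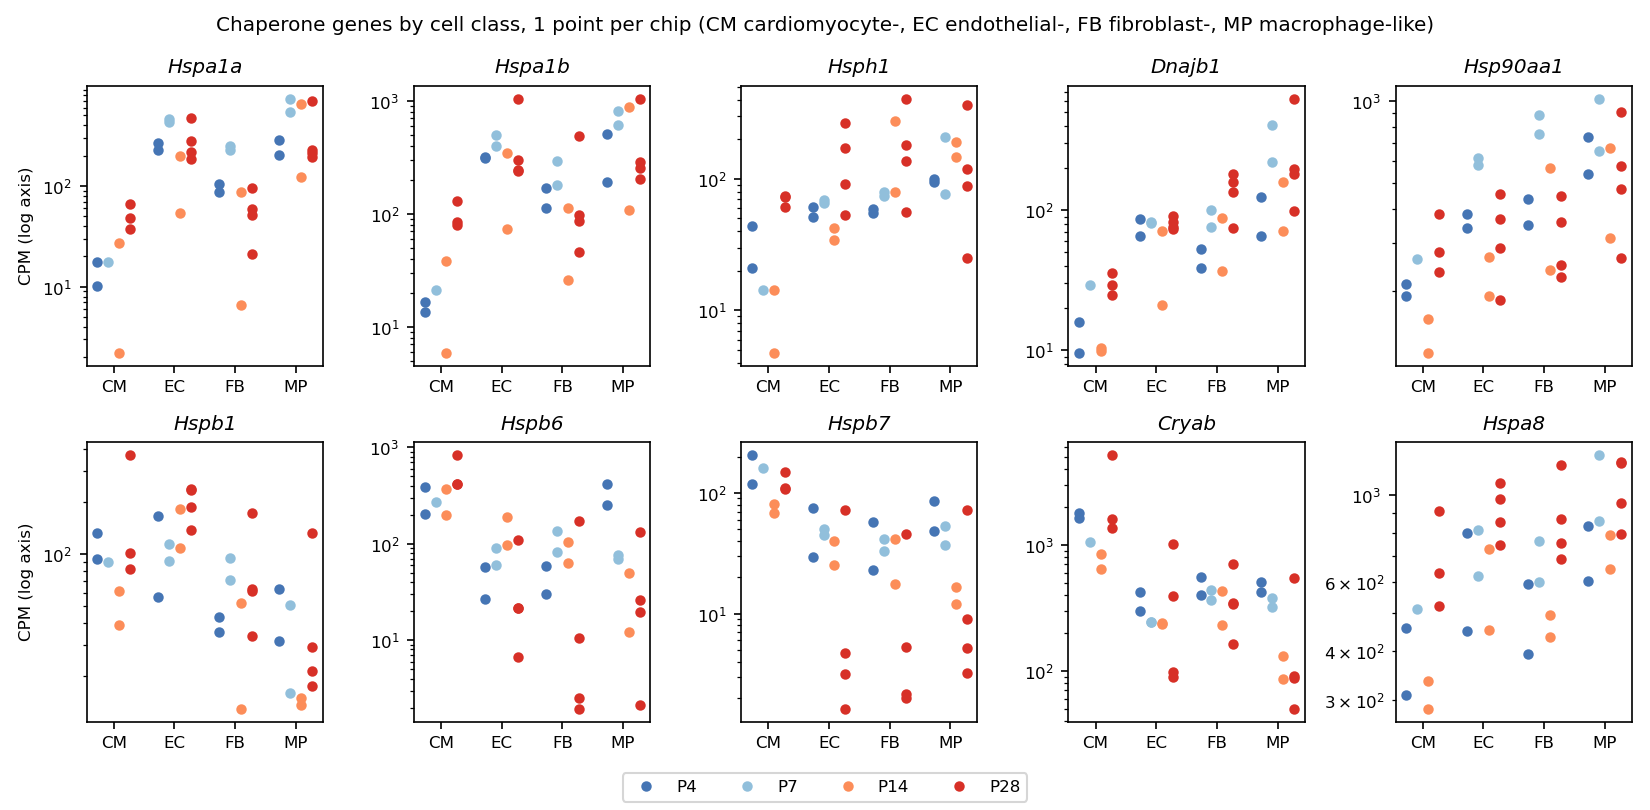
Level of each of the 10 genes (CPM, log axis) in cardiomyocyte-like (CM), endothelial-like (EC), fibroblast-like (FB) and macrophage-like (MP) sums of wild-type hearts, 1 point per chip, coloured by stage. In the top row the CM median is the lowest for Hspa1a and Hspa1b (22.5 and 29.5 CPM). In the bottom row it is the highest for Cryab, Hspb6 and Hspb7, with the P28 replicate 5 point of Cryab at 5199 CPM. For each of these genes the CM range overlaps that of at least 1 other class.

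The share of cells with a UMI was compared after thinning every cell to 2000 UMIs, with 95% exact Clopper-Pearson intervals that cover counting error only. In P4 hearts, Hspa1a was found in 2.01% (0.417 to 5.77) and 5.85% (2.84 to 10.5) of CM-like cells and in 17.4% (13.1 to 22.5) and 18.6% (14.6 to 23.1) of endothelial-like cells. At P7 the share reached 32.9% and 33.9% of endothelial-like cells, and 4.76% of the 21 CM-like cells. CM-like shares were below the endothelial-like share on each of the 6 chips with both classes. Before thinning the P4 shares were 16.8% and 19.3% of CM-like cells at median depths of 19978 and 34574 UMIs, and 33.0% and 44.2% of endothelial-like cells at 7259.5 and 14592 UMIs. The deeper class thus had the lower share.

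Cryab was the reverse. After thinning it was found in 77.2% and 81.9% of CM-like cells at P4, 85.7% at P7, 41.6% and 38.0% on the P14 chips, and 86.7%, 86.3% and 99.2% on the P28 CM chips. The P14 shares were thus the lowest. The P14 CM-like cells also stood apart in other measures: mitochondrial UMIs were 78.8% and 78.4% of their sums, against 20.3% to 72.2% at the other stages. Of the P14 CM-like cells, 284 belonged to a cluster whose CM markers were raised by a mean log2 fold of only 0.242 over the other cells, against 1.46 in the main cluster of 337 cells. Myh6 was at 4062 and 3987 CPM in the first and at 6801 and 11510 CPM in the second, and Cryab was at 453 and 387 against 623 and 981 CPM. The part of these differences in the shares was not tested. In endothelial-like cells the share of Cryab was 9.32% to 36.3% on all chips other than P28 replicate 1, where it was 74.1% of 27 cells. The unthinned CM-like shares of Cryab were 59.0% to 100.0%. Cells shallower than 2000 UMIs were left out, which concerned 95, 6 and 82 CM-like cells on P28 replicates 1, 3 and 5 and none at earlier stages.

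Within CM-like cells the share with Hspa1a was lowest on P14 replicate 1 and highest at P28. After thinning it was 0.279% (0.00707 to 1.55) and 3.0% (1.38 to 5.62) on the P14 chips and 10.2% (7.96 to 12.9), 8.42% (6.16 to 11.2) and 6.60% (4.64 to 9.06) on the P28 CM chips. The intervals of P14 replicate 2 and P28 replicate 5 overlapped. On the non-CM chips of P28 the endothelial-like share was 16.8%, 20.3% and 15.5%, above each of these.

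**Figure D2:**
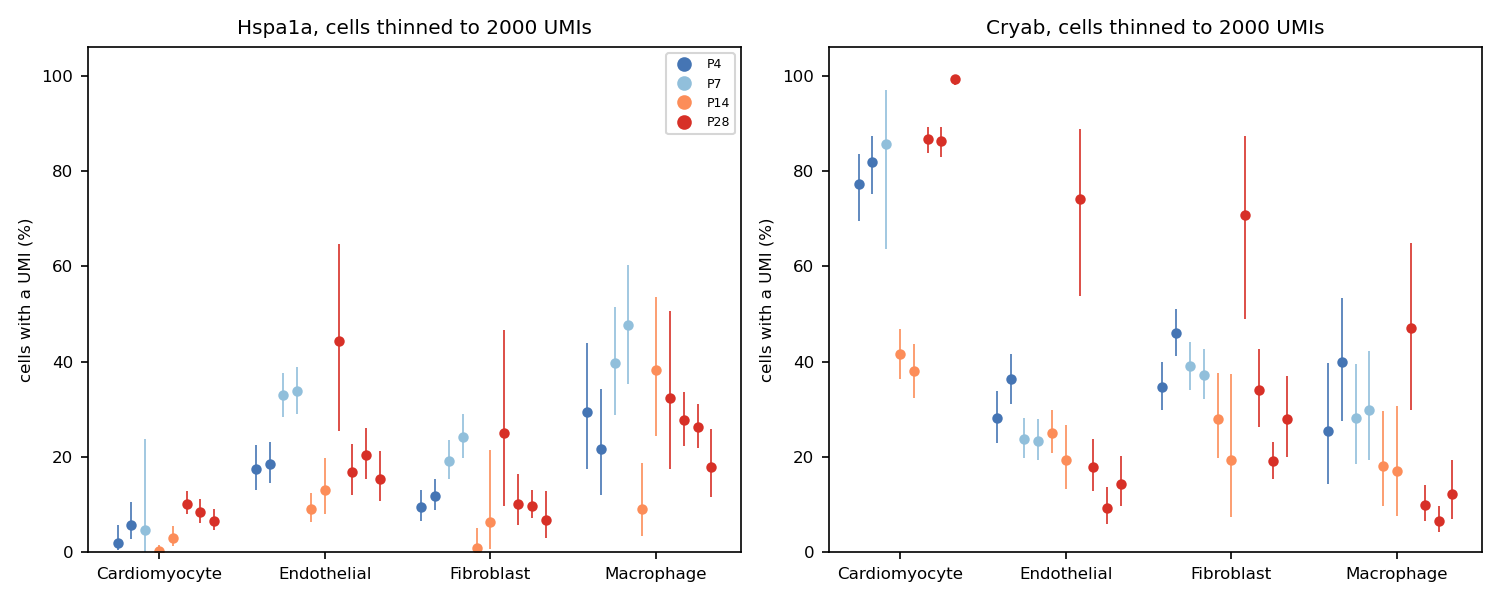
Share of cells with at least 1 UMI of Hspa1a (left) and Cryab (right) after thinning each cell to 2000 UMIs, by cell class and stage, 1 point per chip with its 95% exact interval. Hspa1a shares are lower in cardiomyocyte-like than in endothelial-like cells (2.01% against 17.4% on P4 replicate 1), and Cryab shares run the other way (77.2% against 28.2%).

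Stages were compared within CM-like cells to ask how each gene differed between the early, kit-digested and the later, perfused hearts. Hspa1b was at 13.5 and 16.7 CPM in the P4 sums, 21.0 at P7, 5.88 and 38.0 on the P14 chips, and 129.8, 85.5 and 79.6 at P28. All 3 P28 values were above all others, and the 2 P14 animals lay on either side of the earlier values. By edgeR's quasi-likelihood test over all genes, P14 and P28 together were higher than P4 and P7 by a log2 fold change of 2.05 ± 0.53 (SE), or 4.13-fold, with a Benjamini-Hochberg adjusted p of 0.0203. Hspa1b was the 1 of the 10 genes called higher, and 0 were called lower. Across all 15782 genes tested, 5.63% were called higher and 3.55% lower, so 1 of 10 is near the background, and all genes together had a median log2 change of 0.43. The call was lost without P14 replicate 2 (1.08, adjusted p = 0.111) and without P4 replicate 1 (1.93, adjusted p = 0.0632), and when cells were thinned to at most 5000 UMIs (1.96, adjusted p = 0.0661). With Hspa1a and Hspa1b counted as 1 gene, 1 gene was again called higher.

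Hspa1a followed the same order, with 10.2 and 17.7 CPM at P4, 17.6 at P7, 2.204 and 27.4 on the P14 chips, and 65.6, 47.7 and 37.2 at P28. Its log2 difference of 1.45 ± 0.62 did not pass the threshold (adjusted p = 0.143), although it did without P14 replicate 1 (1.85, adjusted p = 0.0194). P14 replicate 1 was the lowest wild-type chip for both Hsp70 genes in all 4 classes. Its Hspa1a levels were 2.204, 53.6, 6.58 and 122 CPM in CM-like, endothelial-like, fibroblast-like and macrophage-like sums, against 27.4, 198, 86.7 and 645 CPM on P14 replicate 2. The 2 P14 chips held different mice, and chip and mouse cannot be told apart.

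The remaining stress-induced genes did not pass the threshold between these stages. The adjusted p-values were 0.184 for Hsph1, 0.483 for Dnajb1 and 0.347 for Hsp90aa1, with log2 changes of 0.9985, 0.53 and 0.52. Of the small heat shock proteins, Hspb6 had the largest difference, 1.16 ± 0.42 (adjusted p = 0.0819). Its levels were 206 and 387 CPM at P4, 269 at P7, 199 and 367 on the P14 chips, and 412, 422 and 834 at P28, so early and late values overlapped. Hspb6 passed with DESeq2 (1.09, adjusted p = 0.0457) and with no filter on low counts (1.16, adjusted p = 0.0405). Hspb7 was at 67.6 to 206 CPM, with a log2 difference of -0.06 ± 0.33. Cryab differed by 0.75 ± 0.45 (adjusted p = 0.294), Hspb1 by 0.62 ± 0.45 (adjusted p = 0.387) and Hspa8 by 0.77 ± 0.36 (adjusted p = 0.178).

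Within the perfused stages, Hsph1 showed the largest difference between P28 and P14. It was at 14.3 and 4.75 CPM at P14 and at 61.4, 73.0 and 73.6 CPM at P28, so the 2 stages did not overlap. The log2 difference was 2.17 ± 0.56 with an unadjusted p of 0.000945 and an adjusted p of 0.214 in edgeR. Hsph1 passed with DESeq2 (2.10, adjusted p = 0.0279) and with no filter on low counts (2.18, adjusted p = 0.0271). In edgeR 0 of the 10 genes were called, 4 had an unadjusted p under 0.05 and DESeq2 called 1. Of all 15782 genes, 0.0253% were called higher and 0.019% lower.

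Between P7 and P4, within the kit-digested stages, 0 of the 10 genes were called in CM-like cells by edgeR or DESeq2, and 0 had an unadjusted p under 0.05. The background was 0.425% higher and 0.139% lower. That comparison rested on the 21 CM-like cells of P7 replicate 2. Xist, which marks female cells, was at 287 and 103 CPM in the P4 CM-like sums and at 7.56 CPM in the P7 sum, so sex and stage cannot be told apart there.

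In endothelial-like cells the late against early comparison called 0 of the 10 genes in edgeR and in DESeq2, with 1 at an unadjusted p under 0.05 and a background of 1.82% higher and 1.67% lower. Hspa1a was at 266 and 226 CPM at P4, 464 and 430.2 at P7, 53.6 and 198 on the P14 chips, and 469, 219, 187 and 279.6 at P28. The P7 chips were the highest apart from P28 replicate 1, and the groups overlapped. Hspb1 had the smallest p, with a log2 difference of 0.96 ± 0.36 (adjusted p = 0.158), and it passed after thinning (1.31, adjusted p = 0.02). Without P28 replicate 1, Hspb7 was called lower (-2.08, adjusted p = 0.0188). Hsp90aa1 was called lower when cells with markers of 2 classes were left out (-1.42, adjusted p = 0.0369).

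Between P28 and P14 endothelial-like cells, 0% of all genes were called in either direction by edgeR, 1484 of 15515 had an unadjusted p under 0.05, and DESeq2 called 216. None of the 10 genes was called by either tool, and 2 had an unadjusted p under 0.05, Hsph1 (1.41 ± 0.59, adjusted p = 0.464) and Hspb6. Hspb6 was at 97.4 and 188 CPM at P14 and at 109, 21.4, 6.68 and 21.7 CPM at P28. Its log2 difference was -2.42 ± 0.72 (adjusted p = 0.307), and without P28 replicate 1 it was -3.58 (adjusted p = 0.00157), along with -3.90 for Hspb7 (adjusted p = 0.00615). Myh6 moved with them, at 2426 and 3188 CPM at P14 against 169 to 244 CPM on the 3 non-CM chips of P28. Its part in the result was not tested. P7 against P4 called 0 of the 10 genes with either tool, and 0 had an unadjusted p under 0.05. The background was 0% higher and 0.0129% lower.

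Fibroblast-like cells showed Hsph1 and Hspa1a in opposite directions without passing the threshold. Hsph1 was at 59.3 and 55.0 CPM at P4, 79.9 and 73.5 at P7, 79.4 and 276 on the P14 chips, and 406, 137, 179.6 and 55.7 at P28. The late values spread from within the early range to well above it. The log2 difference was 1.65 ± 0.49 (adjusted p = 0.0624), and it was called by DESeq2 (1.82, adjusted p = 0.0228), without the low-count filter (1.48, adjusted p = 0.0289), without P14 replicate 1 (1.83, adjusted p = 0.0397) and without P28 replicate 6 (1.77, adjusted p = 0.017). Hspa1a was at 105 and 87.8 CPM at P4, 246 and 229 at P7, 6.58 and 86.7 on the P14 chips, and 96.4, 59.4, 51.8 and 21.4 at P28. Each P7 value was above every later value. The log2 difference was -1.45 ± 0.52 (adjusted p = 0.138), and it was called lower without P14 replicate 2 (-2.71, adjusted p = 0.00871), after thinning (-1.93, adjusted p = 0.00638), without the low-count filter (-1.62, adjusted p = 0.0232) and without cells that carried markers of 2 classes (-6.68, adjusted p = 0.000354). Leaving those cells out also called Hspa1b lower (-1.72, adjusted p = 0.0332). In edgeR 0 of the 10 genes were called, 2 had an unadjusted p under 0.05, DESeq2 called 1, and the background was 1.72% higher and 2.28% lower.

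The narrower comparisons in fibroblast-like cells called 0 of the 10 genes with either tool. For P7 against P4, 1 of them had an unadjusted p under 0.05, Hsp90aa1 with a log2 difference of 1.20 ± 0.48 (adjusted p = 1), and the background was 0.0193% higher and 0.0128% lower. For P28 against P14, 0% of all genes were called by edgeR, 2036 of 15581 had an unadjusted p under 0.05 and DESeq2 called 488. Without P28 replicate 1, Hspb6 was called lower there (-4.54, adjusted p = 0.00415), as it was without cells that carried markers of 2 classes (-4.81, adjusted p = 0.00615).

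In macrophage-like cells 0 of the 10 genes were called between late and early hearts in edgeR and in DESeq2, 2 had an unadjusted p under 0.05, and the background was 0.762% higher and 0.786% lower. Both were small heat shock proteins of muscle. Cryab was at 504 and 422 CPM at P4, 382 and 321 at P7, 131 and 86.1 on the P14 chips, and 546, 90.5, 49.5 and 88.2 at P28, so that all late values other than P28 replicate 1 were below all early ones. Without that chip the log2 differences were -1.78 for Cryab (adjusted p = 0.0167) and -2.43 for Hspb6 (adjusted p = 0.0341). Without cells that carried markers of 2 classes, Cryab was called lower as well (-2.66, adjusted p = 0.00482). Myh6 was at 1426 to 5106 CPM in the early sums and at 129 to 205 CPM on the 3 non-CM chips, and its part was not tested.

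The inducible Hsp70 genes were high in macrophage-like cells at each age. Hspa1b was at 509.6 and 191 CPM at P4, 815 and 608 at P7, 108 and 878 on the P14 chips, and 1034, 205, 287 and 254 at P28, with no order by age. Dnajb1 had the smallest p between P7 and P4 (1.73 ± 0.78, adjusted p = 0.586). That comparison called 0 of the 10 genes with either tool, with 1 at an unadjusted p under 0.05 and a background of 0% higher and 0.016% lower. P28 against P14 gave 0% in edgeR, with 1239 of 12469 genes at an unadjusted p under 0.05 and 104 called by DESeq2, none of them among the 10.

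Whether the late against early difference itself differed between CM-like and other cells was tested in 1 fit per pair of classes. For Hspa1b the CM-like difference exceeded the endothelial-like one by 2.10 ± 0.74 on the log2 scale (adjusted p = 0.354), the fibroblast-like one by 2.64 ± 0.88 (adjusted p = 0.193) and the macrophage-like one by 1.88 ± 0.84 (adjusted p = 0.371). For Hspa1a the values were 2.01 ± 0.72 (adjusted p = 0.357), 2.93 ± 0.92 (adjusted p = 0.17) and 1.35 ± 0.82 (adjusted p = 0.545). None of the 10 genes passed against any class in edgeR, the tool used for this test. An unadjusted p under 0.05 was reached by 2, 2 and 3 of the 10 genes and by 1855 of 18982, 2594 of 18941 and 2082 of 17265 genes. The background was 0% in both directions against endothelial-like, 0.0739% and 0.0264% against fibroblast-like, and 0.0116% and 0.0405% against macrophage-like cells. That fit had no term for the chip, although the sums of both classes come from the same chips.

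The comparison was therefore also made within chips, as a test added after the data had been seen, on the 3 early and 3 late chips that held CM-like sums together with each other class. The ratio of CM-like to endothelial-like Hspa1b was 0.0429 and 0.054 on the P4 chips, 0.0529 on P7 replicate 2, 0.0795 and 0.11 on the P14 chips, and 0.124 on P28 replicate 1. The early and late ratios did not overlap, and the same was true against fibroblast-like sums, with 0.0804 to 0.147 early and 0.227 to 0.338 late. Against macrophage-like sums they overlapped (0.0266 to 0.0876 and 0.0433 to 0.126). Myh6 in endothelial-like sums was at 1903, 2748.5 and 2199 CPM on the early chips and at 2426, 3188 and 3220 CPM on the late ones. In CM-like sums it was at 12136, 11979 and 19076 CPM early and at 7621, 10194 and 8026 CPM late. Its part in the ratios was not tested. P28 replicate 1, with its small non-CM sums, was 1 of the 3 late chips, and no test within chips was run without it. An exact two-sided permutation test over these 6 chips gave p = 0.1, 0.1 and 0.4 for the mean log2 ratio of Hspa1b, where 0.1 is the smallest p that 3 against 3 allows. Other genes reached 0.1 too. Against fibroblast-like sums the late ratio was higher for Hspa1a (by 1.85) and lower for Hsph1 (-2.29), Cryab (-0.55) and Hspa8 (-0.23). It was lower for Hsph1 against macrophage-like sums (-1.82). Against endothelial-like sums it was lower for Hspb1 (-1.31), Hspb6 (-1.31), Cryab (-0.92) and Hspb7 (-0.62). The share of all genes was not computed. With the chip as a block in edgeR, the CM-like difference of Hspa1b exceeded the endothelial-like one by 1.404 ± 0.39 (adjusted p = 0.473), the fibroblast-like one by 1.78 ± 0.56 (adjusted p = 0.456) and the macrophage-like one by 1.04 ± 0.62 (adjusted p = 0.831). None of the 10 genes was called, 2, 2 and 1 of them had an unadjusted p under 0.05, as did 1057 of 14538, 1384 of 14610 and 738 of 11359 genes, and 0% of all genes were called in either direction against any class. Hspa1b was among those under 0.05 before adjustment against endothelial-like and fibroblast-like cells.

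**Figure D3:**
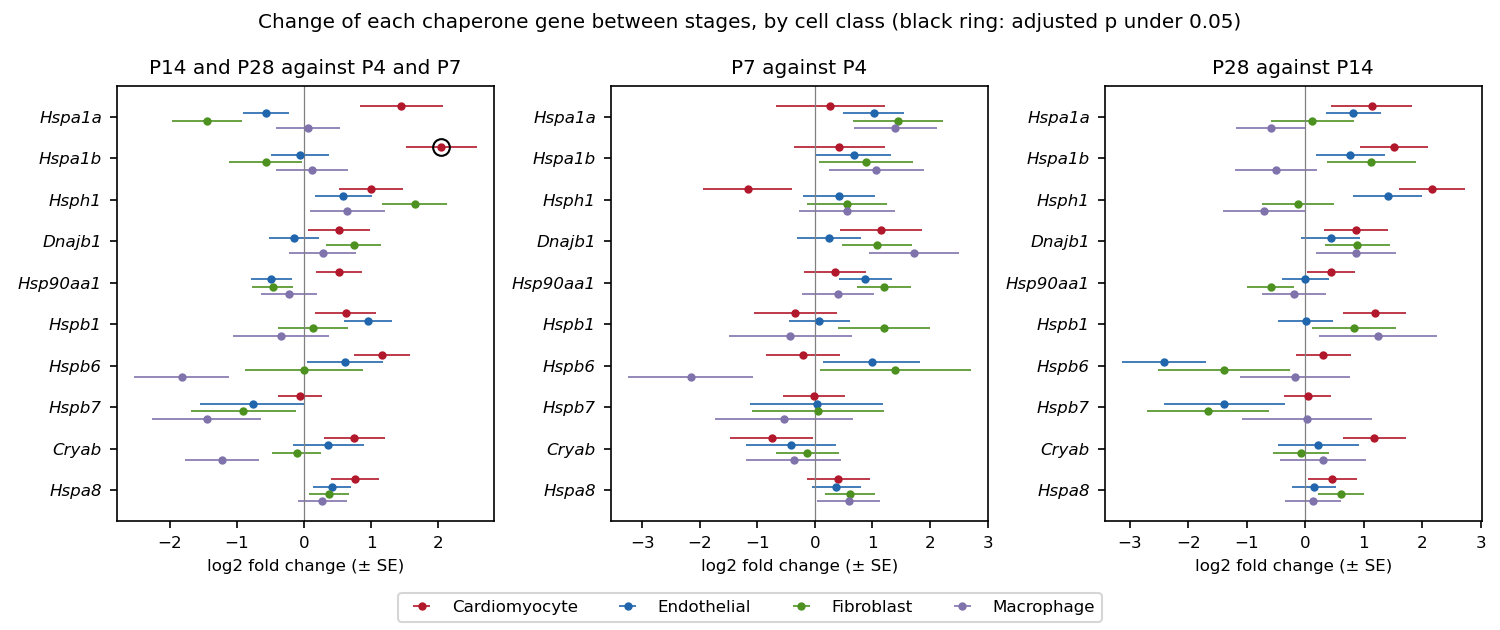
Log2 fold change (± SE, edgeR) of each of the 10 genes between stages in the 4 cell classes. The black ring marks the single call at an adjusted p under 0.05, Hspa1b in cardiomyocyte-like cells at 2.05 in the left panel; Hsph1 reaches 2.17 in the right panel without passing.

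Other genes of the heat shock and stress pathways were read from lists of related genes in the same fits. Of 18 cochaperones and heat shock factor targets, 0 were called between late and early CM-like sums, with a median log2 change of 0.05 against 0.43 for all genes. The counts were also 0 of 6 mitochondrial chaperones and 0 of the 2 heat shock factors tested. Of 3 further small heat shock proteins, Hspb8, the Bag3 partner in chaperone-assisted autophagy, was called higher (2.65 ± 0.40, adjusted p = 0.000481). Of 13 chaperones of the endoplasmic reticulum, Pdia3, a disulfide isomerase that works with calnexin, was called lower (-1.34 ± 0.36, adjusted p = 0.0245). In fibroblast-like cells 2 of these 13 were called higher, Manf (2.17, adjusted p = 0.00274) and Dnajb9 (1.85, adjusted p = 0.0281), and 1 of the 3 small heat shock proteins, Hspb3, was called lower from levels near 0.

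Immediate early genes, which respond within minutes to many stimuli, moved furthest. Of 12 such genes, 10 were called higher in late CM-like sums, with a median log2 change of 2.73. The smallest p-values belonged to Zfp36 (5.19, adjusted p = 7e-04), Dusp1 (2.70, adjusted p = 0.000997) and Egr1 (2.77, adjusted p = 0.00259). In the other classes 5 of 12 were called higher in endothelial-like and 4 of 12 each in fibroblast-like and macrophage-like sums. The summed level of the 12 genes in CM-like sums was 212 and 182 CPM at P4, 205 at P7, 291 and 524 on the P14 chips, and 1298, 855 and 904 at P28. P28 replicate 1 was the highest chip for this sum and for both Hsp70 genes. Over the 8 CM-like sums, which share chips and mice, the correlation of the 2 log2 levels was 0.81. It was 0.15 in macrophage-like, 0.23 in endothelial-like and -0.01 in fibroblast-like sums (10 each).

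**Figure D4:**
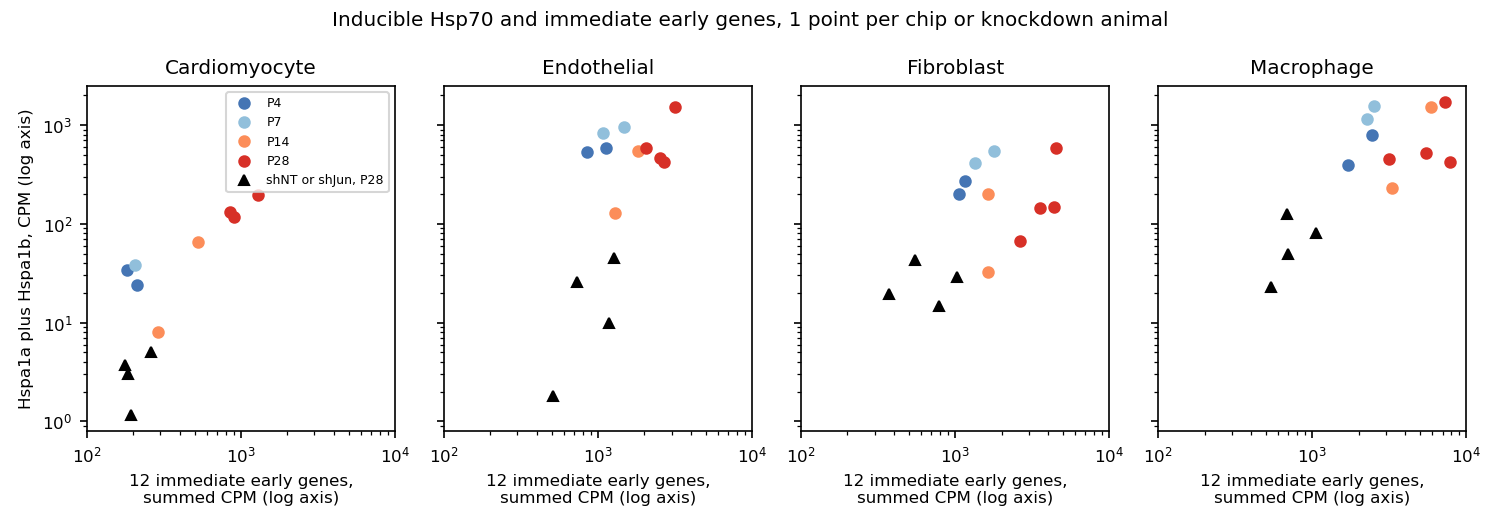
Summed level of Hspa1a and Hspa1b against the summed level of 12 immediate early genes (CPM, log axes), 1 point per wild-type chip (circles, coloured by stage) or knockdown animal (triangles), in 4 cell classes. In cardiomyocyte-like cells the P28 chips stand highest on both axes (immediate early sums of 855 to 1298 CPM). In the other classes the wild-type points show no shared order. On the vertical axis the triangles lie below all circles in cardiomyocyte-like, endothelial-like and macrophage-like cells. They overlap the circles in fibroblast-like cells.

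The small heat shock proteins differed between the P28 hearts themselves. Cryab was at 1596 CPM on P28 replicate 1, 1378 on replicate 3 and 5199 on replicate 5. Replicate 5 was thus more than 3-fold above the others, and both of its mice, at 5655 and 4170 CPM, were above both other chips. Hspb1 (371 against 102 and 81.9 CPM) and Hspb6 (834 against 412 and 422 CPM) were higher there too, whereas Hspb7 was not (109.9 against 148 and 108 CPM). Cryab was at 4109 to 5396 CPM in all 5 clusters of CM-like cells on replicate 5. In the 4 of these clusters that held at least 20 cells on replicates 1 and 3, it was at 1070 to 1996 CPM there. Nppb, a natriuretic peptide gene of stretched cardiomyocytes, was at 1938 to 2907 CPM on replicate 5 and at 207 to 353 CPM on the others. The percentage of mitochondrial UMIs was 50.7 on replicate 5 against 72.2 and 66.9, and its part was not tested.

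Within CM-like cells of P28, the inducible Hsp70 genes were highest in a small cluster. Cluster 11, of 96 cells, had all 10 CM markers detected, as had every CM-like cluster. Its leading genes included immune and stress genes (Ccl4, Rgs1, Cxcl2 and Atf3). Myh6 was at 4931, 11530 and 5976 CPM in it on replicates 1, 3 and 5, against 6816, 14500 and 7150 CPM in cluster 3. Whether immune cells shared these wells was not tested. Hspa1b was at 672, 278 and 323 CPM there on replicates 1, 3 and 5. In cluster 3, the main cluster of replicate 1, it was at 88.9, 35.2 and 38.2 CPM. Cluster 13 lay between, at 357, 164 and 257 CPM, so all 3 chips gave the same order.

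A further cluster of 381 P28 cells carried markers of both CMs and endothelial cells and was left unnamed by a rule set after the clusters had been seen. It held 244, 48 and 81 cells on the CM chips and 8 on the non-CM chips. Hspa1b was at 497, 267 and 469 CPM in it, between the CM-like and the highest endothelial-like levels, while Cryab was at 970, 1181 and 4305 CPM and Myh6 at 4715, 10871 and 4952 CPM. Counting these cells as CM-like left Hspa1b called between late and early hearts (2.32, adjusted p = 0.0127).

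**Figure D5:**
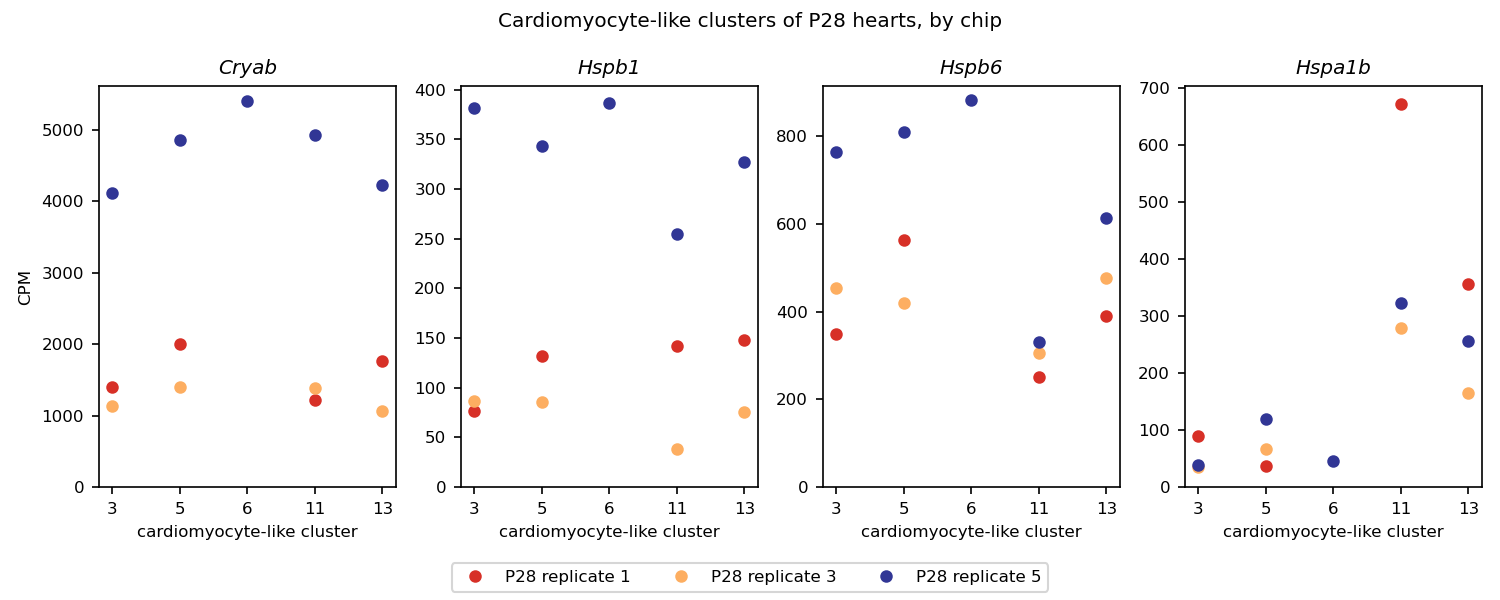
Levels (CPM) of Cryab, Hspb1, Hspb6 and Hspa1b in the 5 clusters of cardiomyocyte-like cells of P28 hearts, 1 point per chip with at least 20 cells in the cluster. The replicate 5 points of Cryab (4109 to 5396 CPM) lie above those of replicates 1 and 3 in each of the 4 clusters that the chips share, and cluster 11 is highest for Hspa1b on each chip (278 to 672 CPM).

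The knockdown was checked first on its target. Jun was at 53.7 and 60.4 CPM in the CM-like sums of the 2 shNT animals and at 25.3 and 32.5 CPM in those of the shJun animals, which did not overlap. The log2 difference was -1.04 ± 0.25, with an unadjusted p of 0.00505 and an adjusted p of 1 in edgeR. In endothelial-like, fibroblast-like and macrophage-like sums Jun differed by 0.26, -0.12 and -0.53, with adjusted p-values of 0.999, 1 and 1.

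None of the 10 genes was called between shJun and shNT in any of the 4 classes, in edgeR, in DESeq2 or with the shared chips as a block. No member had an unadjusted p under 0.05 in edgeR, and the background was 0% in both directions in each class, with 417, 549, 665 and 612 of all genes below 0.05 before adjustment and 15, 105, 124 and 79 called by DESeq2. Cryab was at 1782 and 1809 CPM in shNT and at 1819 and 2354 CPM in shJun CM-like sums, a log2 difference of 0.16 ± 0.22. Hspa8 differed by 0.06 ± 0.21. With 2 animals for each hairpin, the error of Hspa1a (-1.74 ± 1.01) left a wide range of differences possible.

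The inducible Hsp70 genes were low in all 4 knockdown animals, whichever hairpin they carried. In CM-like sums Hspa1a was at 4.18 and 1.48 CPM in shNT and 0.231 and 1.53 CPM in shJun animals. Hspa1b was at 0.867, 2.25, 0.923 and 1.52 CPM, below each of the 8 wild-type sums. In endothelial-like sums Hspa1a was at 2.36, 0.203, 5.08 and 7.59 CPM, against 53.6 to 469 CPM in wild-type chips. After thinning to 2000 UMIs, 0.129% to 0.44% of CM-like cells and 0% to 0.836% of endothelial-like cells had a UMI of Hspa1a. The 0 was 0 of 68 cells, for which the exact 95% interval reached 5.28%. Hspa1b was less uniformly low. It was at 43.3, 1.62, 20.9 and 2.42 CPM in endothelial-like and 36.9, 95.5, 62.5 and 21.5 CPM in macrophage-like sums, below each wild-type sum, and at 9.41 to 31.0 CPM in fibroblast-like sums, where the ranges overlapped. Myh6 was at 638 to 4192 CPM in the endothelial-like, 3541 to 16200 in the fibroblast-like and 5690 to 17770 in the macrophage-like sums. The wild-type ranges were 169 to 3220, 69.6 to 2494 and 129 to 5106 CPM. The part of CM RNA in these levels was not tested. In 1 shJun animal, 125 of 229 macrophage-like cells came from a cluster with a median of 1377 UMIs.

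Hsph1 and Hsp90aa1 were not low in the CM-like sums of these animals. Hsph1 was at 66.0 to 120.2 CPM and Hsp90aa1 at 434 to 693 CPM there, the latter above all 8 wild-type sums (119 to 383 CPM). The class order of the wild-type sums did not hold for these genes. The CM-like median of Hsp90aa1 (479.5 CPM) was above the endothelial-like (333), fibroblast-like (409) and macrophage-like (412) medians. That of Hsph1 (87.3) was above the fibroblast-like (73.0) and macrophage-like (66.7) medians and below the endothelial-like one (115). For Hspa1a, Hspa1b and Dnajb1 the CM-like median stayed the lowest. Dnajb1, at 12.9 to 17.5 CPM in CM-like sums, lay within the wild-type range of 9.54 to 35.4 CPM. In macrophage-like sums it was at 9.56 to 50.2 CPM, below each of the 10 wild-type sums (65.0 to 625 CPM). The higher Myh6 of these macrophage-like sums, given above, applies here too, and its part was not tested. Hspa8 in CM-like sums was at 661 to 862 CPM, within the wild-type range, but in endothelial-like sums it was at 282 to 349 CPM, below each wild-type sum (450.6 to 1076 CPM). In these animals the median of Hspa8 was highest in CM-like sums (699 CPM), unlike in wild-type hearts. Cryab in CM-like sums was at 1782 to 2354 CPM, within the wild-type range. Immediate early genes summed to 178 to 261 CPM in the CM-like sums, against 855 to 1298 CPM in wild-type hearts at P28, the matching age, and 182 to 212 CPM at P4. The knockdown and wild-type P28 hearts were run on different chips and differed in virus and surgery, so no test was made, and these factors cannot be told apart.

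Over the 57 wild-type sums of 9 classes, which share chips and mice, the pattern of each group was set beside all other genes as a description. The genes most like Hspa1a on the log2(CPM + 1) scale were Elmo1 (r = 0.828), Jun (0.825), Tpm3-rs7 (0.8), Plk2 (0.793) and Arpc1b (0.778). Within the list, Hspa1a was most like Hspa1b (0.916), then Hsp90aa1 (0.792), Dnajb1 (0.748), Hspa8 (0.662) and Hsph1 (0.538). Its r with the small heat shock proteins was only -0.035 to 0.214. The genes most like Cryab were Ndufc1 (0.884), Cox7b (0.88), Tpm1 (0.877), Ndufa5 (0.875) and Ndrg2 (0.874), of which Ndufc1, Ndufa5 and Cox7b belong to the respiratory chain. Its r was 0.828 with Hspb7, 0.799 with Hspb6, 0.661 with Hspb1 and 0.791 with Myh6. The stress-induced and the small heat shock genes thus formed 2 patterns across cell classes, with Hspb1 less close to Cryab than the other small heat shock proteins.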

How the data were processed

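The authors deposited UMI counts per gene and well for 18 chips, made per the labels and the study's methods with STAR 2.5.2b on mm10 and featureCounts (Subread 1.4.6-p1). Wells with at least 500 genes and log10 UMIs within 2 SD of the mean were kept. Mean and SD were taken over all chips of a stage, or over all knockdown chips. Control wells and 100 spike-in and reporter columns were left out. Cells were clustered per stage or knockdown animal (leidenalg 0.10.2, 10 components, 30 neighbours) with the genes of every list held out, and named from markers of 11 cell types. No doublet caller was run, since wells had been imaged. UMIs were summed per class and chip (at least 20 cells) or knockdown animal, mitochondrial genes left out, and tested with edgeR 4.0.16 (quasi-likelihood, TMM, filterByExpr, Benjamini-Hochberg over all genes), with DESeq2 1.42.0 as an alternative. The stage and knockdown fits were checked on simulated counts. The difference of the stage effect between classes was fitted without and with the chip as a block, both added after the data had been seen. P-values measure the spread between chips, and P4 and P7 chips repeat the same mice. P28 replicates 3 and 4 appear to share an animal. Intervals cover counting error only. The 10 genes and the other lists were chosen with earlier results of these data known. All 10 are named, with the up to 3 genes of smallest p per list and direction past the threshold, and the 5 genes most like Hspa1a and Cryab. Same-numbered knockdown animals shared chips, so the chip pair was fitted as a block.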

Additional observations from a re-analysis of the deposited data

Results flagged for a closer look

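A value far from the rest was looked for in groups of at least 4 sums. Only the P28 endothelial-like, fibroblast-like and macrophage-like sums had as many, with 4 each, which made 30 groups over the 10 genes. Of these, 11 had such a value, and all 11 were P28 replicate 1. All groups lie on the same 4 chips, of which replicate 1 alone held a CM fraction. They are thus not independent, and the nominal rate of about 1 in 20 is no measure for them. In endothelial-like sums these were Hspa1b at 1045 CPM, Hspb6 at 109 CPM and Hspb7 at 72.0 CPM. In fibroblast-like sums they were Hspa1b at 485 CPM, Hspb6 at 172.5 CPM and Hspb7 at 45.7 CPM. In macrophage-like sums they were Hspa1a at 689 CPM, Hspa1b at 1034 CPM, Hspb1 at 132 CPM, Hspb7 at 72.8 CPM and Cryab at 546 CPM.

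The 181 control wells held 104207 UMIs, of which 303 came from the 10 genes, 3 of them from Hspa1a and 3 from Hspa1b. The following stood at 2 or more times the share in the cells of the same chip. Positive-control wells held 4 UMIs of Cryab on P28 replicate 1, 4 of Hspa8 on P28 replicate 2 and 18 of Hspb6 on P4 replicate 2. Negative-control wells held 5 UMIs of Hspb6 on knockdown chip 1 and 31 of Hspb1 on knockdown chip 6.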

How the results depend on the processing

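Of 16 tested comparisons, 9 kept their count of called genes among the 10 under every alternative that was run and 7 did not, and no direction reversed. These 16 leave out the difference of the stage effect between classes, where some signs changed with the chip as a block. Against endothelial-like cells, Hspb6 went from 0.56 ± 0.75 to -0.99 ± 0.39, Cryab from 0.38 to -0.59 and Hspb7 from 0.78 to -0.28. Against macrophage-like cells, Hsph1 went from 0.31 to -1.38. Hspa1a and Hspa1b kept their sign against each class. The counts were unchanged in 116 of 130 alternatives and in 118 of 128 fits with 1 sum left out. The causes of the changes were not tested. In CM-like cells, late against early hearts gave 1 call, against 2 with DESeq2, 2 with no low-count filter, 0 after thinning to at most 5000 UMIs, and 0 to 2 with 1 sum left out. P28 against P14 gave 0, against 1 with DESeq2 and 1 with no filter. In endothelial-like cells, late against early gave 0, against 1 after thinning, 1 without cells that carried markers of 2 classes, and 0 to 1 with 1 sum left out. P28 against P14 gave 0, against 1 with no filter and 0 to 2 with 1 sum left out. In fibroblast-like cells, late against early gave 0, against 1 with DESeq2, 2 with no filter, 1 after thinning, 2 without cells of 2 classes, and 0 to 1 with 1 sum left out. P28 against P14 gave 0, against 1 without cells of 2 classes and 0 to 1 with 1 sum left out. In macrophage-like cells, late against early gave 0, against 1 without cells of 2 classes and 0 to 2 with 1 sum left out. The replicate block by chip pair gave 0 calls in each class, as did the knockdown comparison without it. Sums of 21 to 34 cells and 2 knockdown animals per hairpin limit what could be detected.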
